A study of Solanum lycopersicum with 2 samples.

Results

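The cells described here are cells of the tomato root that were chosen by UMIs (unique molecular identifiers, each standing for 1 captured transcript) of sieve element genes, as candidates for phloem cells. A cell was a member if it held UMIs of at least 2 of 5 genes. These were the sieve element occlusion genes Solyc03g111810, Solyc05g013850 and Solyc05g013860, the sucrose transporter SUT1 (Solyc11g017010) and the MYB factor APL (Solyc12g017370). The rule selected 299 members of 22634 kept cells, 100 of 12403 in replicate 1 and 199 of 10231 in replicate 2. A kept cell had at least 500 UMIs, of which at most 1% came from plastid and mitochondrial genes. The cells are called members rather than phloem cells, because few phloem genes outside the rule could be named. Of them, 25.0% in replicate 1 and 29.6% in replicate 2 held only Solyc03g111810 and SUT1. These differed from the members with APL in other genes. Whether they were phloem cells was not tested. Of the cells with 5 or more Solyc03g111810 UMIs, 63.2% and 44.4% were members, so the rule did not take all such cells either.

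Both libraries were made from wild-type seedlings of the cultivar M82. For each, 50 to 100 primary roots were cut about 3 cm from the tip at 7 days after sowing, digested to protoplasts and loaded on a droplet platform. There was no treatment group, so each comparison sets the members of a library against its remaining cells. A protoplast preparation holds only cells that survive wall digestion, and each library pooled the roots of many plants.

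Phloem carries sugars from leaves to roots. Its conducting cells, the sieve elements, lose their nucleus as they mature and depend on the companion cells beside them. Sieve element occlusion genes encode the filament proteins that can plug a sieve tube after wounding. SUT1 encodes a carrier that moves sucrose together with protons and is known for phloem loading. APL, named in Arabidopsis for its altered phloem mutant, encodes a factor required for phloem identity.

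Replicate 1 was the deeper library, with a median of 12767 UMIs in members and 8024 in other cells. In replicate 2 these medians were 4740 in members and 3786 in other cells. A rule that asks for 2 detected genes favours deep cells, and the part of depth in the results below was not tested beyond the thinned counts given with them. The libraries shared 38 barcodes, and 1 of these was a member in both. Without the shared barcodes, 1549 genes were higher and 1767 lower in the main comparison, against 1584 and 1823 with them.

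The members made up 0.806% of the kept cells of replicate 1 (exact 95% binomial interval 0.656 to 0.980%) and 1.95% of replicate 2 (1.69 to 2.23%). The mean was 1.38% ± 0.81 (SD, n = 2). Intervals cover counting error only. When each cell was thinned to 2000 UMIs and the rule was applied again, 28 cells of 10275 in replicate 1 (0.273%) and 47 of 6990 in replicate 2 (0.672%) were members. That left out 2128 and 3241 shallower cells. Among the cells of at least 2000 UMIs, 97 and 156 had been members at full depth.

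The 5 genes contributed very unequally to the choice. Because they chose the cells, their values are a description and carry no test. Solyc03g111810 led, with UMIs in 90 of 100 members of replicate 1 and 175 of 199 members of replicate 2. Its level was 1258 and 1719 CPM (UMIs per 1000000 UMIs of those cells) in members, against 3.76 and 33.6 CPM in other cells. Single members reached 221 UMIs of it in replicate 1 and 165 in replicate 2, which made it by far the most abundant of the 5.

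Solyc05g013860 was seen in 56 members of replicate 1 and 60 of replicate 2. Its level was 84.5 and 44.0 CPM in members, against 0.265 and 0.353 CPM in other cells. Solyc05g013850 was seen in only 7 and 21 members, at 19.1 and 34.4 CPM in members, against 0.0162 and 0.0252 CPM in other cells. Other cells held 3 UMIs of it in replicate 1 and 2 in replicate 2, so it was the most exclusive of the 5. Solyc05g013850 and Solyc05g013860 carry consecutive identifiers, and reads that match both could have been split or lost in counting.

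APL was seen in 43 members of replicate 1 and 89 of replicate 2. Its level was 38.8 and 83.4 CPM in members, against 0.162 and 0.731 CPM in other cells, and 70.9% and 71.8% of all its UMIs were in members. SUT1 behaved differently from the other 4. It was seen in 33 and 86 members, at 32.4 and 73.8 CPM in members, against 4.71 and 18.1 CPM in other cells. Members held 6.53% of the SUT1 UMIs of replicate 1 and 8.37% of those of replicate 2, so most SUT1 transcripts lay outside the cells chosen.

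**Figure D1:**
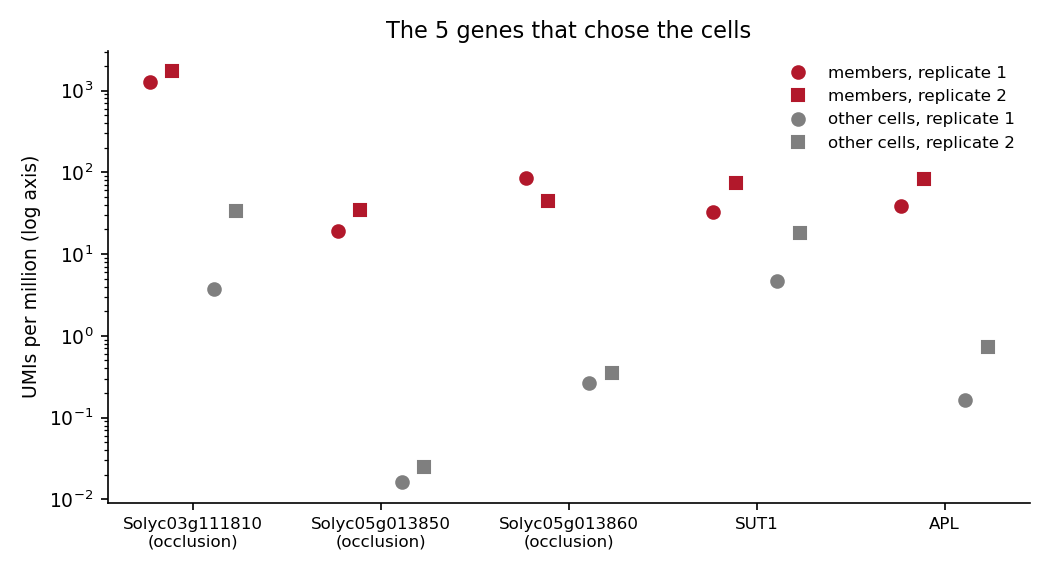
Level of each of the 5 rule genes in CPM (log axis) in members (red) and other cells (grey) of replicate 1 (circles) and replicate 2 (squares). Solyc03g111810 was at 1258 and 1719 CPM in members, while SUT1 had the highest level in other cells of replicate 1, 4.71 CPM, and one of 18.1 CPM in replicate 2.

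APL and SUT1 also differed in how often they met Solyc03g111810 in a cell. Of the cells with an APL UMI, 54.0% in replicate 1 and 54.4% in replicate 2 also held Solyc03g111810, against 2.63% and 6.81% of the cells without APL. Of the cells with a SUT1 UMI, 5.28% and 7.20% held Solyc03g111810, against 2.78% and 7.41% of the cells without SUT1. In replicate 2, therefore, cells with SUT1 held Solyc03g111810 no more often than cells without it. Solyc05g013850 and SUT1 were never seen in the same kept cell of either library. Only 10 and 23 kept cells held Solyc05g013850, and 4.43% and 9.11% of the cells without it held SUT1. So few cells cannot show whether the 2 genes exclude each other.

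Free RNA in the droplets gives single UMIs in cells that do not express a gene. Cells with at least 2 UMIs of SlASFT, the feruloyl transferase of exodermal suberin, were taken as a type outside the phloem, 70 in replicate 1 and 246 in replicate 2. Of these, 0 and 3 were themselves members. None of the 70 held Solyc03g111810, which allows a share of up to 4.29%, and 16 of the 246 (6.50%) did. SUT1 was seen in 3 of the 70 (4.29%) and 13 of the 246 (5.28%). The shares in all other cells were 2.19% and 5.79% for Solyc03g111810 and 4.19% and 8.41% for SUT1. The SlASFT cells were shallower, with medians of 2871 and 2224 UMIs, against 8024 and 3786 UMIs in other cells. The intervals of the SlASFT cells covered the shares in all other cells for Solyc03g111810 in both libraries and for SUT1 in both. The part of free RNA in these shares was not tested. The share counts any cell with a UMI, and 32 and 109 cells outside the members held 5 or more UMIs of Solyc03g111810. APL was seen in none of the 70, which allows up to 4.29%, and in 1 of the 246 (0.407%).

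By the genes they held, the members fell into 3 main classes. Those with APL beside at least 1 other rule gene numbered 43 in replicate 1 and 89 in replicate 2. Those with 2 or more occlusion genes and neither SUT1 nor APL numbered 28 and 46. Those whose rule genes were Solyc03g111810 and SUT1 and nothing else numbered 25 and 59, and 4 and 5 members held some other combination. The pair of Solyc03g111810 and SUT1 was the most frequent single combination in both libraries, at 25.0% and 29.6% of the members.

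The pair class differed from the others in depth and in its occlusion gene. Its median cell had 25320 and 7676 UMIs, or 3.16 and 2.03 times the median of the other cells in the same library. The APL class had medians of 12609 and 4714 UMIs, and the class with occlusion genes only had 9321 and 2948 UMIs. The median count of Solyc03g111810 was 1 UMI in the pair class of both libraries. It was 20 and 6 UMIs in the APL class, and 9.5 and 18 UMIs in the class with occlusion genes only. In the pair class 17 of 25 and 37 of 59 cells held exactly 1 UMI of it.

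**Figure D2:**
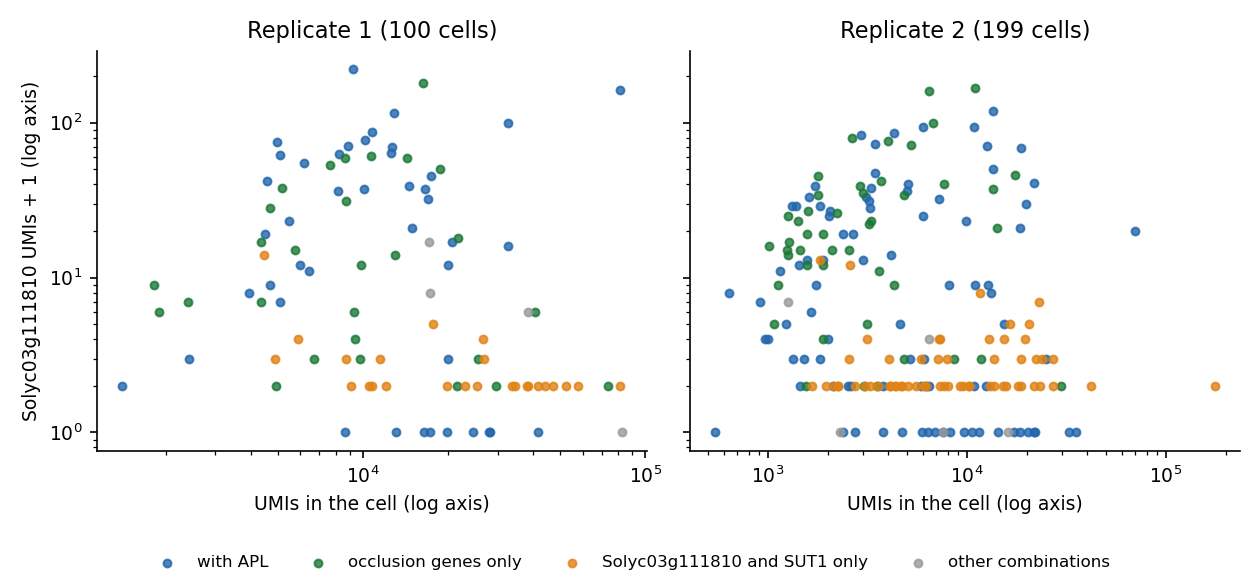
Each point is 1 member, with all its UMIs on the x axis and its Solyc03g111810 UMIs plus 1 on the y axis (both log axes), coloured by the rule genes it held. The pair class (orange) lies mostly at 1 UMI of Solyc03g111810, where 17 of 25 cells of replicate 1 and 37 of 59 of replicate 2 sit, while the blue and green classes reach 221 UMIs.

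Depth and class moved together within libraries too. When each library was cut into 3 depth groups of equal size, 5 cells of replicate 1 and 47 of replicate 2 were members in the shallowest group, 0 and 3 of them in the pair class. In the deepest group 46 and 77 cells were members, and 16 and 34 of them belonged to the pair class. The deepest group held 8 and 8 members of the class with occlusion genes only.

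The threshold of 2 genes was close for many cells. Exactly 2 of the 5 genes were seen in 73 members of replicate 1 and 169 of replicate 2, with a median of 2 Solyc03g111810 UMIs in both. Just outside it lay 849 and 1482 cells with exactly 1 gene, and those with Solyc03g111810 as that gene had a median of 1 UMI. The cells with exactly 1 gene were deep, with medians of 14847 and 5328 UMIs. Cells with 3 genes numbered 25 and 27, cells with 4 numbered 2 and 3, and none had 5.

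Whether members resembled each other in the rest of the transcriptome was read from nearest neighbours. For each cell the 20 nearest cells of its library were found in 35 principal components of the 2000 most variable genes, with the 5 rule genes left out. On average 41.4% of the neighbours of a member were members in replicate 1 and 26.4% in replicate 2, a mean of 33.9% ± 10.6 (SD, n = 2). Among the neighbours of other cells, 0.412% and 1.09% were members. The members' values were 51.3 and 13.6 times the share of members in the library.

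The classes again stood apart. In the APL class 60.6% and 29.8% of the neighbours were members, and in the class with occlusion genes only 49.6% and 46.6% were. In the pair class the values were 3.40% and 6.44%, and 16 of its 25 cells in replicate 1 and 28 of its 59 in replicate 2 had no member among 20 neighbours. The APL class and the class with occlusion genes only shared neighbours: of the neighbours of cells with occlusion genes only, 32.7% and 19.5% belonged to the APL class. No test was run over cells, which are not replicates. Without the pair class the mean share was 43.5%, from 53.5% in replicate 1 and 33.6% in replicate 2.

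**Figure D3:**
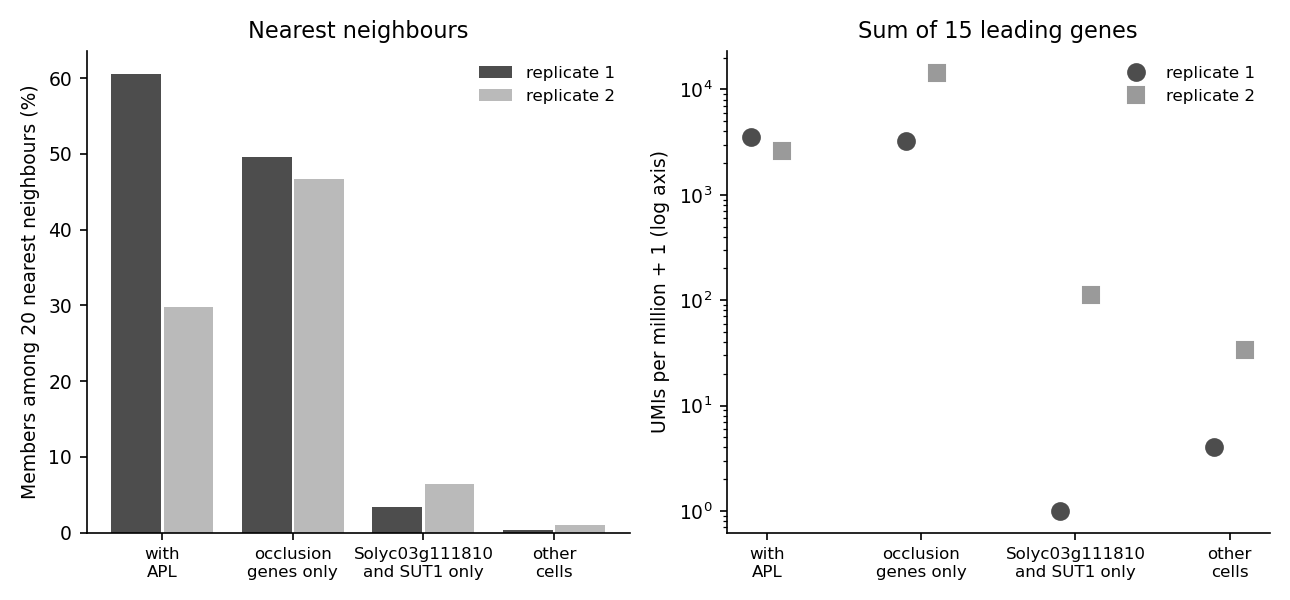
Left, mean percent of members among the 20 nearest neighbours of the cells of each class and of other cells, for replicate 1 (dark) and replicate 2 (light). Right, summed CPM plus 1 (log axis) of the 15 leading genes. The pair class has 3.40% and 6.44% members among its neighbours and leading gene sums of 0 and 111 CPM, against 3547 and 2627 CPM in the APL class and 3.01 and 32.8 CPM in other cells.

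Outside the 5 rule genes, members differed from other cells in many genes, with the counts of a library summed over its members and over its other cells. Of 17806 genes tested, 1584 (8.9%) were higher and 1823 (10.2%) lower in members at an adjusted p under 0.05 (edgeR's quasi-likelihood test with library as a term, Benjamini-Hochberg). Of these, 1197 were higher and 1050 lower by more than 2-fold, and the median over all genes tested was a log2 fold change of -0.09. The test had 2 libraries and drew its spread from all genes. Its p-values describe how far the difference between members and other cells varied between these libraries, which may be technical. Without library as a term, 59 genes were higher and 13 lower. With cells thinned to 2000 UMIs, 869 were higher and 1422 lower. This fit kept the members chosen at full depth, so it does not address how depth entered the choice. It left out cells with fewer than 2000 UMIs, 3 members of replicate 1 and 43 of replicate 2 among them.

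The leading genes were the 15 with the highest fold changes among those with at least 10 UMIs in the members of each library. For the 14 with a UMI in other cells, log2 fold changes ran between 7.31 and 8.89, and none of the 15 has a name in the sources used here, since the files pair identifiers with no names. Fold alone was a poor guide to how widespread a gene was. The gene at the top had 19 and 17 UMIs in members and none in other cells, and these came from 1 cell of replicate 1 and 4 cells of replicate 2. Against the floor of 3 UMIs per library it was at least 623-fold and 254-fold higher.

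Solyc02g071310 had the most UMIs of the 15. Its level was 857 and 1043 CPM in members, against 1.30 and 13.8 CPM in other cells. It was seen in 33 of 100 and 72 of 199 members, against 77 of 12303 and 151 of 10032 other cells. The fitted log2 fold change came to 7.55 (SE 0.58, edgeR adjusted p = 8.77e-07).

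The 15 leading genes were not spread evenly over the classes. Together they had 3547 and 2627 CPM in the APL class, 3250 and 14441 CPM in the class with occlusion genes only, and 3.01 and 32.8 CPM in other cells. In the pair class of replicate 1 all 15 were at 0 among 686324 UMIs. In the pair class of replicate 2 their 88 UMIs came to 111 CPM, and 8 of the 15 were at 0. These genes were picked from the comparison of all members, so the class values are a description. With the pair class left out, 1899 genes were higher and 2374 lower in members.

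At the other end, Solyc01g097720 had no UMI in members of either library, against 677 and 1053 UMIs in other cells. A count of 0 allows up to 3 UMIs per library, a floor of 1.59 and 1.69 CPM in members, so with 3.66 and 13.3 CPM in other cells it was at least 2.29-fold and 7.84-fold lower. A count of 0 of 100 and of 199 members allows a share of up to 3% and 1.51%, against shares of 2.01% and 2.47% in other cells, so the share of cells was not detectably lower in replicate 1. Its edgeR adjusted p was 0.000353, and it did not pass with DESeq2. Its fitted log2 fold change, like that of any gene at 0, depends on the prior count and is not given.

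Names for identifiers came from tables of the study, which annotate 203 identifiers, of which 155 were tested. These tables were drawn up for suberin and exodermis, not phloem, so few phloem genes could be named. Of the 155, 14 (9.03%) were higher and 21 (13.5%) lower in members, against the 8.9% and 10.2% of all genes, so the share higher was near the background. The 12 higher ones that met the naming rule are given first.

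The spermine synthase gene Solyc03g007240, whose enzyme class makes the polyamine spermine, was the most abundant of those with a large change. Its level was 158 and 362 CPM in members, against 19.1 and 51.4 CPM in other cells. The fitted log2 fold change came to 2.72 (SE 0.18, edgeR adjusted p = 1.91e-07), and 56 of 100 and 93 of 199 members held it. Its level was 320 and 714 CPM in the APL class, 146 and 69.4 CPM with occlusion genes only, and 32.1 and 132 CPM in the pair class. The APL class was the highest of the 3 classes in both libraries.

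A pectin lyase-like gene, Solyc02g068400, of a family that acts on cell wall pectin, rose most among the annotated genes. It had 18 and 45 UMIs, or 9.57 and 25.4 CPM, in members, against 0.799 and 2.76 CPM in other cells. The fitted log2 fold change came to 3.16 (SE 0.39, edgeR adjusted p = 6.17e-05). These UMIs came from 8 members of replicate 1 and 16 of replicate 2.

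Tomato AGAMOUS 12 (Solyc11g032100), annotated by the name of a MADS-box factor, had 16.5 and 43.4 CPM in members, against 2.40 and 9.32 CPM in other cells, a log2 fold change of 2.26 (SE 0.29, edgeR adjusted p = 6.84e-05). The LOB domain gene Solyc04g077990, of a plant family of DNA-binding proteins, had 48.4 and 72.7 CPM in members, against 7.19 and 20.6 CPM in other cells, a log2 fold change of 2.07 (SE 0.25, edgeR adjusted p = 4.33e-05). WRKY transcription factor 8 (Solyc02g093050) had 90.3 and 94.7 CPM in members, against 18.8 and 29.1 CPM in other cells, a log2 fold change of 1.78 (SE 0.21, edgeR adjusted p = 3.65e-05). The naming rule asked for the same direction in both libraries, so all 3 were above other cells in both.

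The protein phosphatase 2C gene Solyc03g096670 had 36.7 and 137 CPM in members, against 9.71 and 63.9 CPM in other cells, a log2 fold change of 1.27 (SE 0.22, edgeR adjusted p = 0.00105). Its level was 13.9 and 90.4 CPM in the APL class, 53.7 and 78.7 CPM with occlusion genes only, and 16.0 and 199 CPM in the pair class. Of its 69 UMIs in members of replicate 1, the APL class held 9, the class with occlusion genes only 21 and the pair class 11. The others lay in the 4 members with some other combination. Of its 243 UMIs in members of replicate 2, 158 lay in the pair class. The receptor-like kinase gene HSL1 (Solyc02g077630) had 26.6 and 22.5 CPM in members, against 7.29 and 10.9 CPM in other cells. The kinase genes Solyc01g111570, Solyc01g108280 and Solyc06g082440 rose by log2 fold changes of 1.08, 1.02 and 0.78. The GRAM domain gene Solyc08g078510, the most abundant of the 12 at 372 and 837 CPM in members, against 168 and 420 CPM in other cells, rose by 0.86. Solyc05g009550, annotated as a regulator of Vps4 in vesicle sorting, rose by 1.21.

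Of these 12, the genes for spermine synthase, the LOB domain protein, WRKY 8, protein phosphatase 2C and the GRAM domain protein kept their call under every alternative that had library as a term. Each of the 12 lost it without that term. Thinning to 2000 UMIs ended the call of the pectin lyase-like gene, Tomato AGAMOUS 12, HSL1, the Vps4 regulator, Solyc01g111570 and Solyc01g108280. Asking for 3 or more rule genes ended it for the pectin lyase-like gene, HSL1, the Vps4 regulator and Solyc06g082440. Leaving out the pair class ended it for Solyc01g111570, at a log2 fold change of 0.59.

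**Figure D4:**
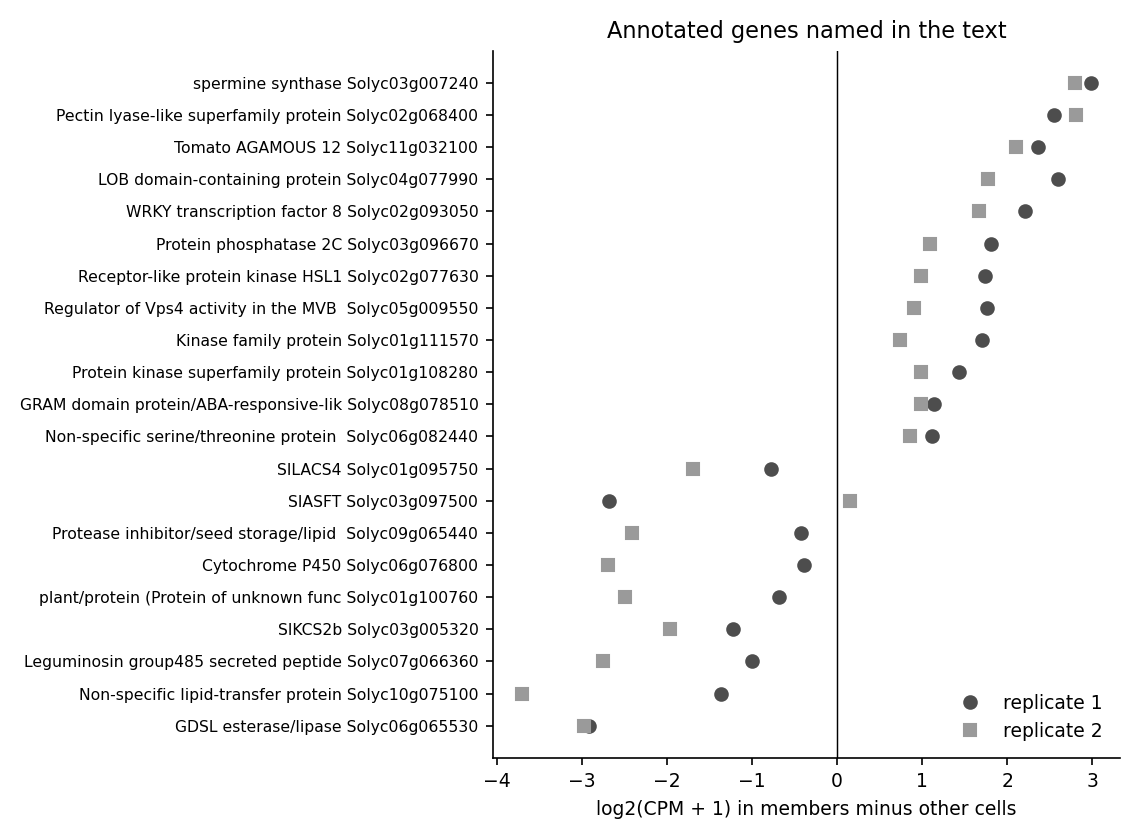
Difference in log2(CPM + 1) between members and other cells for each annotated gene named in the text, in replicate 1 (circles) and replicate 2 (squares). The 12 genes above the suberin gene SlLACS4 are above 0 in both libraries, as the rule for naming them required. SlASFT is at -2.68 in replicate 1 and 0.15 in replicate 2.

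Of the 6 annotated genes with the lowest fold changes, 3 carry annotations of lipid handling. The GDSL esterase/lipase gene Solyc06g065530, of a family of lipid-acting enzymes, had 1 and 4 UMIs in members, against 1944 and 1953 UMIs in other cells, a log2 fold change of -3.88 (SE 0.46, edgeR adjusted p = 4.31e-05). The non-specific lipid-transfer protein gene Solyc10g075100 had 1 and 4 UMIs in members, against 544 and 3292 UMIs in other cells, a log2 fold change of -4.11 (SE 0.49, edgeR adjusted p = 4.68e-05). Both kept their call under every alternative with library as a term.

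The 4 others of the 6 lowest held 1 UMI or none in members. The cytochrome P450 gene Solyc06g076800 had none, against 58 and 434 UMIs in other cells. That put it at least 3.23-fold lower in replicate 2, while in replicate 1 its level in other cells, 0.313 CPM, was itself under the floor of 1.59 CPM. Solyc07g066360, annotated as a secreted peptide, Solyc01g100760, of unknown function, and Solyc09g065440, a protease inhibitor and lipid transfer protein, each had 0 UMIs in replicate 1 and 1 UMI in replicate 2 in members. Their counts in other cells were between 64 and 186 UMIs in replicate 1 and between 579 and 757 UMIs in replicate 2. All 4 passed the edgeR test, with adjusted p between 0.00428 and 0.0178, and all but Solyc07g066360 failed with DESeq2.

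The exodermis, the suberized layer under the epidermis, was the other cell type whose genes could be matched, through 7 suberin genes. In replicate 1 all 7 were at 0 in members, against 9.88 CPM in sum in other cells. In replicate 2 they summed to 58.6 CPM in members, against 81.4 CPM in other cells, and 1 of the 7 was at 0 in members. By test 0 of 7 were higher and 2 (28.6%) were lower, against 8.9% and 10.2% of all genes tested. The 2 were SlKCS2b at a log2 fold change of -2.60 (SE 0.60, edgeR adjusted p = 0.00667) and SlLACS4 at -2.53 (SE 0.79, edgeR adjusted p = 0.0380). SlKCS2b and SlLACS4 encode enzymes that elongate and activate fatty acids. SlLACS4 lost its call under 7 of 11 alternatives with library as a term. The median of the 7 was -2.53, or -1.35 with the gene at 0 in both libraries set at its floor. It was -0.57 with cells thinned to 2000 UMIs and -3.22 without the pair class. With 3 or more rule genes it was -10.1, where it depends on the prior count because most of the 7 were at 0. The study names 13 suberin genes, these 7 among them. Of the 10 tested, 0 were higher and 3 (30%) lower, with a median of -1.54 and a highest log2 fold change of 1.34. All 13 summed to 4.25 and 74.4 CPM in members, against 16.1 and 95.0 CPM in other cells.

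SlASFT itself did not pass the test, at a log2 fold change of -0.62 (SE 0.46, edgeR adjusted p = 0.416). It had 0 UMIs in members of replicate 1 and 83 in those of replicate 2, against 1004 and 3332 UMIs in other cells. Of the 83, 75 lay in 3 cells of the pair class. The APL class held 8 UMIs of SlASFT in 6 cells, and the class with occlusion genes only held none. With the pair class left out, the log2 fold change of SlASFT was -2.79 and passed the test. The whole exodermis list came to 115 CPM in the pair class of replicate 2, 17.8 CPM in the APL class and 0 in the class with occlusion genes only. Of the 91 UMIs of the list in the pair class of replicate 2, 75 were thus of SlASFT, from 3 of its 59 cells. The pair class of replicate 1 held 0 UMIs of the list. The part of these cells in the results was not tested.

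Longer lists of the study were read against the background of 8.9% higher and 10.2% lower over all genes tested. Of 135 tested genes of the suberin regulatory module, 13 (9.63%) were higher and 14 (10.4%) lower, close to the background, with a median log2 fold change of -0.46. Of 46 tested late exodermal genes, 1 was higher, Tomato AGAMOUS 12, and 16 (34.8%) were lower, with a median of -1.35. Both lists were drawn up by the study, the late exodermal one on these libraries.

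Genes induced by protoplasting, left out above, were compared in a fit that kept them, in which 8.08% of 18557 genes were higher and 9.59% lower. Of 743 tested, 58 (7.81%) were higher and 289 (38.9%) lower in members, with a median log2 fold change of -0.93. In sum they took 19399 and 33700 CPM in members, against 45994 and 55940 CPM in other cells, so both libraries showed a lower level in members.

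Of the phloem lists that had been planned, only the sucrose-cleaving enzymes had an identifier with a name. The cell-wall invertase gene Solyc10g085360, whose enzyme splits sucrose outside the cell, had 0 and 1 UMIs in members, against 11 and 22 UMIs in other cells. At these counts no difference was detectable (edgeR adjusted p = 0.920). Whether members are phloem cells could therefore be read only from the 5 rule genes.

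Within the members, cells with SUT1 or APL were compared with cells that had occlusion genes only. Of 8856 genes tested, 20 (0.226%) were higher and 24 (0.271%) lower in the cells with SUT1 or APL by edgeR, and 416 and 379 passed at an unadjusted p under 0.05. Of the 24 lower genes, 23 were among those higher in all members, as were 11 of the 20 higher genes. Of the 17806 genes of the main comparison 8.9% were higher. That share is over a wider set, since the 8856 genes had to pass a count filter in members alone. The share higher in all members among the 8856 was not computed. Both comparisons used the same members, so the overlap is a description. One of the 24 lower genes, Solyc12g010500, also 1 of the 15 leading genes, had 3 and 4 UMIs in the APL class. It had 0 and 0 in the pair class, and 25 and 55 in the class with occlusion genes only. Its log2 fold change between the cells with SUT1 or APL and those with occlusion genes only was -5.93 (SE 0.57, edgeR adjusted p = 0.00896). Its 55 UMIs in replicate 2 came from 16 cells, and its 25 in replicate 1 from 4.

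Solyc08g082120 showed the opposite arrangement. It had 3182 and 4768 CPM in the APL class, 48.6 and 222 CPM in the class with occlusion genes only, and 0 and 2.52 CPM in the pair class. Its log2 fold change between the cells with SUT1 or APL and those with occlusion genes only was 3.997 (SE 0.49, edgeR adjusted p = 0.0184). The UMIs of the APL class came from 10 of 43 and 34 of 89 cells, so not every cell with APL held it. In all members it had 1109 and 1989 CPM, against 9.02 and 61.2 CPM in other cells, of which 129 and 697 held it.

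The APL class and the pair class were also compared directly, a comparison chosen after their values were seen. Of 7952 genes tested, 576 (7.24%) were higher and 557 (7.0%) lower in the APL class by edgeR.  Of the 12 annotated genes described above, 5 passed. The pectin lyase-like gene (3.92), the LOB domain gene (3.16), Tomato AGAMOUS 12 (3.05), spermine synthase (2.75) and WRKY 8 (1.36) were higher in the APL class, by the log2 fold changes given. The other 7 did not pass, with edgeR adjusted p between 0.175 and 0.962. The pathogenesis-related gene Solyc09g090980 (-5.14), the O-methyltransferase gene Solyc03g080180 (-3.12) and the lipid transfer protein gene Solyc09g065430 (-2.65) were lower in it. The nodulin26-like channel gene Solyc08g076880 (-1.54) and the cytochrome P450 gene Solyc07g062500 (-1.33) were lower as well.

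Thinned to 2000 UMIs, members had medians of 1202 and 1210 genes per cell, against 1147 and 1155 in other cells. Unthinned, the medians were 3897 and 2171 in members and 2766 and 1780 in other cells. At the same depth the pair class had 1190 and 1221 genes, the APL class 1202 and 1209 and the class with occlusion genes only 1201 and 1178. These cells came from 97 and 156 of the members, since 3 and 43 had fewer than 2000 UMIs.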

How the data were processed

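Each of the 2 libraries came as raw UMI counts per gene and barcode, which the authors made and deposited after running Cell Ranger (6.0.1 by the file header) on tomato SL4.0 with ITAG4.1 gene models and organelle sequences. Barcodes had been called as cells. The counts were used unnormalized. No doublet caller was run, and leaving out the deepest 5% of cells was the alternative. Identifiers were used without prefix and version, and none of the deposited tables pairs them with names. Names came from the study's tables, so 14 of 16 planned lists matched no identifier. The annotation given here held no such identifiers, and no sequence was printed.

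The members and lists were chosen with earlier results of these data known. Plastid, mitochondrial, protoplasting-induced and rule genes were left out, as were genes seen in 3 or fewer cells. Counts were summed per library over members and other cells and tested with edgeR 4.0.16 (TMM, filterByExpr, quasi-likelihood test, library as a term, Benjamini-Hochberg), with DESeq2 1.42.0 as an alternative. The pairing is that of cells within 1 library. Scripts were tested on simulated data. CPM is UMIs per 1000000 UMIs of the cells summed. Neighbours were found with scikit-learn 1.9.0. Totals were 187215851 and 81175339 UMIs.

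The text names the 5 rule genes, up to 15 annotated genes of highest and 6 of lowest fold change among those past the threshold, of the same direction in both libraries and with at least 10 UMIs in the higher cells of each (12 genes were found for the higher side), and for each list its most abundant member and up to 4 past the threshold. The unannotated genes and the genes within classes were chosen after their values were seen.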

Additional observations from a re-analysis of the deposited data

How the results depend on the processing

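Most counts of genes stayed within 1.5 times the values given, under DESeq2's size factors, no filter on low counts, 1000 UMIs per cell, protoplasting-induced genes kept, other cells without those with 1 rule gene, 3 or more rule genes, no deepest 5% of cells, no shared barcodes and no pair class. The exceptions were the fit with no replicate block, with 59 genes higher and 13 lower, thinning to 2000 UMIs, with 869 higher, and the DESeq2 Wald test, with 1085 lower. The cause was not tested. The mean share of members moved to 0.472% when the rule was applied to thinned counts and to 0.255% with 3 or more rule genes, the first with less depth and without 2128 and 3241 shallower cells, the second by a stricter rule. Leaving out a replicate gave shares of members between 0.806% and 1.95% and neighbour shares between 26.4% and 41.4%. It gave no count of genes, since 1 library leaves no test. Over the single genes, 2 reversed: SlASFT had differences of log2(CPM + 1) between -2.68 and 0.15 and cell-wall invertase between -0.083 and 0.292 with a replicate left out. With 3 UMIs as the floor, 1.59 and 1.69 CPM in members, genes below these levels in other cells could not be given a fold.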

Other observations

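Cells that carried Solyc03g111810 in quantity but no second rule gene stayed outside the members. There were 32 such cells with 5 or more UMIs of it in replicate 1 and 109 in replicate 2, at median depths of 11648 and 2882 UMIs. Of all cells with 5 or more UMIs of it, 63.2% and 44.4% were members. The 15 leading genes came to 372 and 3366 CPM in these outside cells, and 12 and 14 of the 15 were detected. Among their 20 nearest neighbours 18.0% and 25.9% were members, against 3.44% and 3.97% for cells with fewer than 5 UMIs of Solyc03g111810 and no second rule gene. The APL class had 60.6% and 29.8%.

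Cells with APL as their only rule gene, 20 in replicate 1 and 36 in replicate 2, had 15.8% and 14.7% members among their neighbours. Cells with SUT1 as their only rule gene, 516 and 844, had 1.43% and 2.10%, and cells with no rule gene had 0.213% and 0.447%.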
